A study of Mustela putorius furo with 10 samples.

Results

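Store-operated calcium entry is the route by which blood cells refill their calcium stores, and 10 of its core genes were listed here by symbol: the store sensors STIM1 and STIM2, the channel subunits ORAI1, ORAI2 and ORAI3, the inositol trisphosphate (IP3) receptors ITPR1, ITPR2 and ITPR3, and the pumps ATP2A2 and ATP2A3. The symbols were matched to the RefSeq ferret gene name of each target sequence on the array, which found 8 of the 10 genes. A gene was reported where the ferret channel was well above background on at least 4 of the 10 arrays, which left 7 of the 10, among 26314 genes measured in all. In that number, and in every share of all genes below, a target sequence without a gene name counts as 1 gene. No target sequence was matched to ITPR3 or ATP2A3. The single target sequence of ORAI2, the paralog of ORAI1 and ORAI3, was not well above background on any array in either channel, and the same was true of 1 of the 3 target sequences of STIM1.

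When a receptor at the plasma membrane activates phospholipase C, IP3 opens its receptors on the endoplasmic reticulum and calcium leaves the store. STIM proteins sense the fall of calcium in the store lumen, move to contact sites with the plasma membrane and open ORAI channels there. STIM2 responds to smaller falls of store calcium than STIM1, and the SERCA pumps encoded by the ATP2A genes return calcium to the store. In lymphocytes this entry activates calcineurin, which dephosphorylates the NFAT transcription factors.

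The study compared peripheral blood mononuclear cells (PBMC, isolated by a Ficoll gradient) of male ferrets aged 3 months. The control group was kept at 22 °C (6 arrays) and the cold group was kept at 4 °C for 1 week, each animal housed on its own (4 arrays). There was 1 array per animal, and no strain or genotype is named in the labels. Each ferret's RNA was labelled with Cy3, and the Cy5 channel of every array held 1 reference pool of PBMC and other tissues. Values are log2 ratios of Cy3 to Cy5, so that a positive value means more of the transcript in the ferret than in the pool, and a change is the cold mean minus the control mean.

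Depth on an array is signal over background. Cy3 was well above background at 50.4 to 63.5% of spots on control arrays and 58.0 to 61.1% on cold arrays. For Cy5 the shares were 27.0 to 54.9% and 40.5 to 64.0%, and the median Cy5 intensity was 44 to 80 on control arrays and 48 to 152 on cold arrays. At the 7 measured genes the Cy5 intensity before normalization was higher in the cold group by 0.63 (ORAI1) to 1.88 (ORAI3) on the log2 scale, although the pool was the same RNA. Whether this brightness had a part in the results below was not tested, and the change of each of the 7 genes is also given for Cy3 alone, quantile normalized.

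Of the 7 genes, ITPR2 was the only one whose cold and control arrays did not overlap, and all 4 of its cold levels were under the lowest control level, where 5.23% of all genes did not overlap and 2.15% lay lower in the cold group in this way. STIM1 and ITPR1 had lower means with overlapping groups, and STIM2, ORAI1, ORAI3 and ATP2A2 differed by no more than the spread between arrays. The change was below 0 for 6 of the 7 genes, against 52.0% of all genes measured. It was below 0 for 5 of 7 with Cy3 alone (57.1% of all genes) and with the scanner software's processed signals (61.5%), and for all 7 in the deposited table (49.3%) and after median centring (77.1%). At an unadjusted limma p under 0.01, 1 of the 7 genes was called (ITPR2, lower in the cold group), against 8.62% of all genes and 3.42% for those lower in the cold group. Run on these log2 ratios at that threshold, the methods' t-test called 2 of the 7 (ITPR1 and ITPR2), against 6.56% of all genes. At an unadjusted limma p of 0.05 there were 3 of 7, against 24.7% of all genes. The median change of the 7 was -0.19, against -0.01 over all genes. After Benjamini-Hochberg adjustment no gene of the 26314 passed 0.05 in limma, the lowest adjusted p being 0.0577, while 2269 had an unadjusted p under 0.01.

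**Figure D1:**
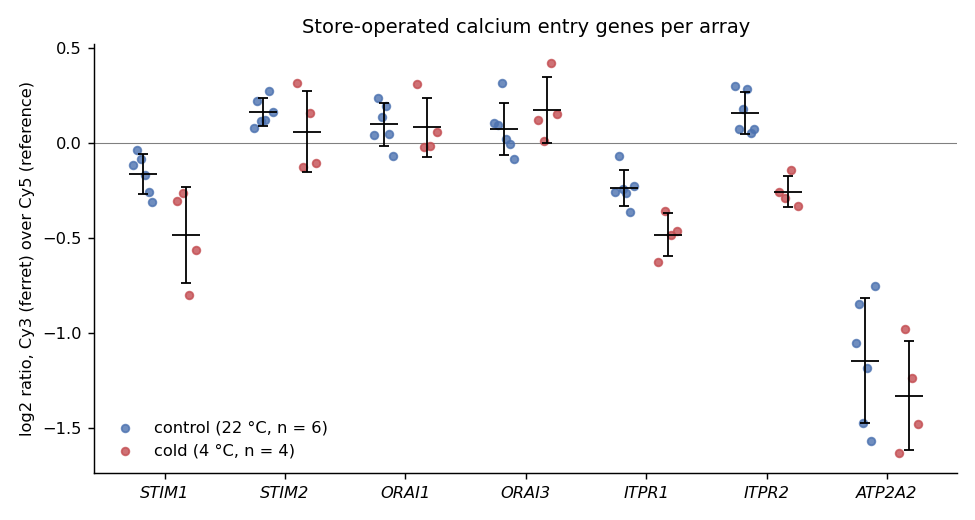
Log2 ratio of Cy3 (ferret) to Cy5 (reference pool) for each measured gene, with 1 point per array, 6 control and 4 cold, and the group mean with its SD in black. All 4 cold arrays of ITPR2 lie below all 6 control arrays, and the groups of the other 6 genes overlap.

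STIM1, the main sensor of store calcium, had log2 ratios of -0.30, -0.26, -0.80 and -0.56 on cold replicates 1 to 4. On the control arrays it ranged from -0.31 to -0.04, with a median of -0.14. Cold replicates 3 and 4 lay below every control array, and cold replicates 1 and 2 lay within the control range. The mean was -0.16 ± 0.10 (SD, n = 6) in the control group and -0.48 ± 0.25 (SD, n = 4) in the cold group. The change was -0.32 (SE 0.11), with a limma p of 0.0155 (adjusted 0.129) and an exact two-sided permutation p of 0.0190. Both measured target sequences of the gene were lower in the cold group, XM_004768190 by a log2 change of -0.28 and XM_004768191 by a log2 change of -0.36. All 8 of its probes were lower, by log2 changes of -0.41 to -0.20, while 51.4% of all probes had a change below 0, and 1 of the 8 had an unadjusted limma p under 0.01, against 6.46% of all probes. The same probe separated the groups without overlap, as 3.87% of all probes did. With Cy3 alone the change was -0.41 (exact permutation p = 0.0190) with overlapping groups. Leaving out cold replicate 3, the lowest array, moved the change of the ratio from -0.32 to -0.21. In the other direction, the change was -0.76 in the deposited table and -1.30 after median centring (-0.88 relative to the median of all genes).

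STIM2, the sensor of small falls in store calcium, was measured by 8 probes on 2 target sequences, each above background in Cy3 on all 10 arrays. Its log2 ratios were 0.32, -0.13, 0.16 and -0.10 on cold replicates 1 to 4. The control arrays ranged from 0.08 to 0.28, with a median of 0.14. Cold replicates 2 and 4 lay below every control array, cold replicate 1 lay above every control array and cold replicate 3 lay among them. The means were 0.16 ± 0.07 (SD, n = 6) and 0.06 ± 0.21 (SD, n = 4). The change of -0.10 (SE 0.098) did not exceed the array-to-array spread, and had a limma p of 0.321 (adjusted 0.553) and an exact two-sided permutation p of 0.305. Its probes did not share 1 direction, since 5 of the 8 were lower and 3 higher in the cold group, with changes of -0.22 to 0.11. Cy5 was well above background on all 10 arrays at 6 of these probes, and on 5 and 7 arrays at the other two, which were both among the 3 that were higher.

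The value of STIM2 moved with the way the 2 channels were combined, although its direction did not. With the processed signals of the scanner software the change was -0.31 (-0.21 relative to the median of all genes). With Cy3 alone the level was 10.3 ± 0.13 (SD, n = 6) in the control group and 10.0 ± 0.21 (SD, n = 4) in the cold group on the log2 intensity scale. The change of Cy3 alone was -0.26 (limma adjusted p = 0.174, exact permutation p = 0.0571), and the groups overlapped through cold replicates 1 and 3. Cy5 at STIM2, after quantile normalization, changed by 0.02 (exact permutation p = 0.695).

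In the deposited table, which holds log2 values of Cy3 relative to Cy5 with a constant for each array and sequence, STIM2 did separate the groups. Its 4 cold values were 10.01, 10.03, 9.97 and 9.92, and its 6 control values ranged from 10.24 to 10.66 with a median of 10.37. All 4 cold values were thus lower than the lowest control value, and 2.31% of all genes in that table separated the groups in either direction. The change there was -0.42 (SE 0.15), with a limma p of 0.0168 (adjusted 0.244) and an exact two-sided permutation p of 0.00476, the smallest that the 210 splits of 10 arrays allow. Taken per target sequence, the methods' t-test on that table gave a change of -0.40 for XM_004762646 and -0.44 for XM_004762647, with adjusted p-values of 0.305 for both. The groups did not overlap at either sequence, which held for 2.42% of all target sequences in the table. The unadjusted p-values were 0.00289 and 6.5e-04, where 3.21% of all target sequences passed 0.01. STIM2 is a gene that the study listed from these same arrays, so the deposited values are not independent evidence of its direction. The median change over all genes was 0.01 in that table.

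**Figure D2:**
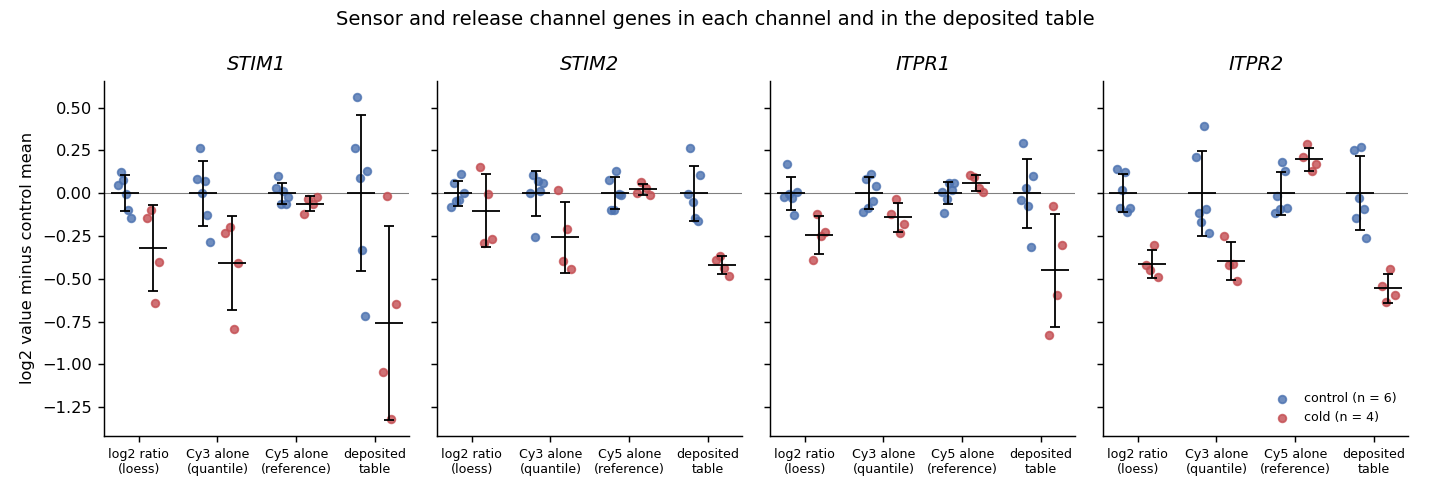
Log2 values of STIM1, STIM2, ITPR1 and ITPR2 minus the control mean, with 1 point per array and the group mean with its SD in black, for the loess log2 ratio, for each channel alone after quantile normalization and for the deposited table. STIM2 separates the groups in the deposited table and not in the loess ratio or in Cy3, whereas ITPR2 separates them in the loess ratio, in Cy3 and in the deposited table.

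ORAI1, the pore subunit of the channel that STIM1 opens, had log2 ratios of 0.31, -0.02, -0.02 and 0.06 on cold replicates 1 to 4. The control arrays ranged from -0.07 to 0.24, with a median of 0.09. Only cold replicate 1 lay outside the control range. The change was -0.02 (SE 0.092), with a limma p of 0.870 (adjusted 0.937) and an exact two-sided permutation p of 0.862, and its sign turned when any 1 of cold replicates 2 and 3 and control replicates 2 and 4 was left out. It was further below 0 with processed signals (-0.36), with Cy3 scaled to its 75th percentile (-0.35) and after median centring (-0.38, or 0.04 relative to the median of all genes). Of its 4 probes, 2 were lower and 2 higher in the cold group. With Cy3 alone the change was -0.26 (exact permutation p = 0.105). Cy5 was well above background on 5 or 6 of the 10 arrays at these probes, so the denominator of this ratio was near background on the others.

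ORAI3, the paralog of ORAI1 that is found in mammals, had log2 ratios of 0.12, 0.01, 0.42 and 0.15 on cold replicates 1 to 4. On the control arrays it ranged from -0.08 to 0.31, with a median of 0.06. Cold replicate 3 was the only cold array above the control range. The change was 0.10 (SE 0.10), with a limma p of 0.338 (adjusted 0.568) and an exact two-sided permutation p of 0.319, and it was below 0 in the deposited table (-0.40) and after median centring (-0.98, or -0.55 relative to the median of all genes). Without cold replicate 3 the change of ORAI3 was 0.021, with processed signals it was 0.039, and with Cy3 scaled to its 75th percentile it was 0.30. In the reference channel of ORAI3, Cy5 after quantile normalization was higher on all 4 cold arrays than on any control array, by 0.14 (exact permutation p = 0.00476), and 1.49% of all genes separated the groups in Cy5. With Cy3 alone the change of ORAI3 was 0.13 (exact permutation p = 0.200).

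ITPR1, an IP3 receptor that releases calcium from the store, was covered by 16 probes on 4 target sequences. Its log2 ratios were -0.62, -0.35, -0.48 and -0.46 on cold replicates 1 to 4. The control arrays ranged from -0.36 to -0.07, with a median of -0.25. The groups overlapped by a single pair of arrays, since cold replicate 2 lay just above control replicate 5 and the other 3 cold arrays lay below every control array. The means were -0.24 ± 0.10 (SD, n = 6) and -0.48 ± 0.11 (SD, n = 4). The change of -0.24 (SE 0.081) had a limma p of 0.0114 (adjusted 0.119) and an exact two-sided permutation p of 0.00952. Of the 16 probes, 15 were lower in the cold group, with changes of -0.45 to 0.05 over all 16. All 4 target sequences had lower means, and 1 of the 4 had an unadjusted limma p under 0.01, against 8.6% of all target sequences. Cy5 was well above background on all 10 arrays at 10 of the 16 probes of ITPR1 and on 6 to 9 arrays at the rest. At the target sequence called, XM_004738415, the 4 cold arrays were all lower than the lowest control array (5.1% of all target sequences separated the groups), with a change of -0.34 (SE 0.090, limma adjusted p = 0.0868, exact permutation p = 0.00476). The change of ITPR1 in Cy3 alone was smaller, at -0.14 (exact permutation p = 0.0524). It was larger in the deposited table (-0.45) and after median centring (-0.84, or -0.41 relative to the median of all genes).

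ITPR2, the IP3 receptor with the highest affinity for IP3, had log2 ratios of -0.26, -0.29, -0.14 and -0.33 on cold replicates 1 to 4. The control arrays ranged from 0.05 to 0.30, with a median of 0.13. All cold arrays lay below 0, the typical ratio of spots of like brightness on the same array, and all control arrays above it. The groups did not overlap, which held for 5.23% of all genes measured and, with cold below control, for 2.15%. The mean was 0.16 ± 0.11 (SD, n = 6) in the control group and -0.25 ± 0.08 (SD, n = 4) in the cold group. The change was -0.42 (SE 0.081), with a limma p of 3.1e-04 (adjusted 0.0638) and an exact two-sided permutation p of 0.00476. All 4 probes of its single target sequence were lower in the cold group, by log2 changes of -0.56 to -0.31, and 2 of them separated the groups without overlap, against 3.87% of all probes.

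With Cy3 alone the level of ITPR2 was 9.21 ± 0.25 (SD, n = 6) in the control group and 8.81 ± 0.11 (SD, n = 4) in the cold group on the log2 intensity scale. That change was -0.40 (limma adjusted p = 0.0998, exact permutation p = 0.0190), and all 4 cold arrays lay below all 6 control arrays, where 7.03% of all genes separated the groups. In the deposited table the change was -0.56 (limma adjusted p = 0.237, exact permutation p = 0.00476), again without overlap, which held for 2.31% of all genes there. Cy5 at ITPR2, after quantile normalization, was higher in the cold group by 0.20 with overlapping groups (exact permutation p = 0.0333), and Cy5 was well above background on 6 or 7 of the 10 arrays at its probes. Over 23 alternative ways of processing, each array left out in turn included, the change ranged from -1.002 to -0.39. Its unadjusted p stayed under 0.01 in all 23, the highest being 0.00962, but all 23 draw on the same arrays and are not independent.

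ATP2A2, which encodes the SERCA pump of most cell types, had log2 ratios of -1.63, -0.98, -1.23 and -1.47 on cold replicates 1 to 4. The control arrays ranged from -1.56 to -0.75, with a median of -1.12. Only cold replicate 1 lay outside the control range. The change of -0.19 (SE 0.18) had a limma p of 0.330 (adjusted 0.561) and an exact two-sided permutation p of 0.371. All 4 probes were lower in the cold group in the ratio, by log2 changes of -0.30 to -0.07. The direction turned with Cy3 alone, where the change was 0.24 (exact permutation p = 0.162), and with the processed signals of the scanner software, where it was 0.15. Leaving out 1 array gave -0.30 (without cold replicate 2) to -0.084 (without cold replicate 1), and median centring gave -0.72 (-0.29 relative to the median of all genes).

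**Figure D3:**
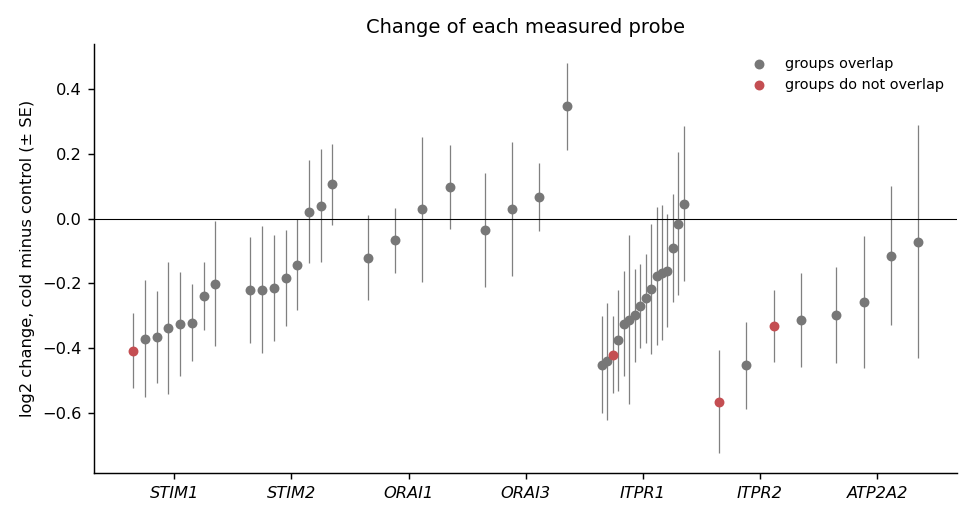
Log2 change, cold minus control, of the log2 ratio for each measured probe of the 7 genes, with its SE, ordered within each gene. All 8 probes of STIM1, all 4 of ITPR2 and all 4 of ATP2A2 lie below 0, 15 of 16 for ITPR1, and the probes of STIM2, ORAI1 and ORAI3 lie on both sides.

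The 3 pairs of paralogs were compared on each array by the difference of their log2 ratios, which asks whether the members of a family changed unequally. STIM2 minus STIM1 was 0.32 ± 0.14 (SD, n = 6) in the control group and 0.54 ± 0.34 (SD, n = 4) in the cold group, a shift of 0.22 (exact permutation p = 0.200). ORAI3 minus ORAI1 shifted by 0.12 (exact permutation p = 0.395) and ITPR2 minus ITPR1 by -0.17 (exact permutation p = 0.119). In none of the 3 pairs did the groups separate. The difference ITPR2 minus ITPR1 passed 0.05 with processed signals, at -0.63 (exact permutation p = 0.00952), and without control replicate 2, at -0.22 (exact permutation p = 0.0397). STIM2 minus STIM1 did so without cold replicate 2, at 0.36 (exact permutation p = 0.0357). In Cy3 alone the ORAI shift was 0.39, with an exact permutation p of 0.0143. Its direction turned in the deposited table (-0.35) and after median centring (-0.59).

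**Figure D4:**
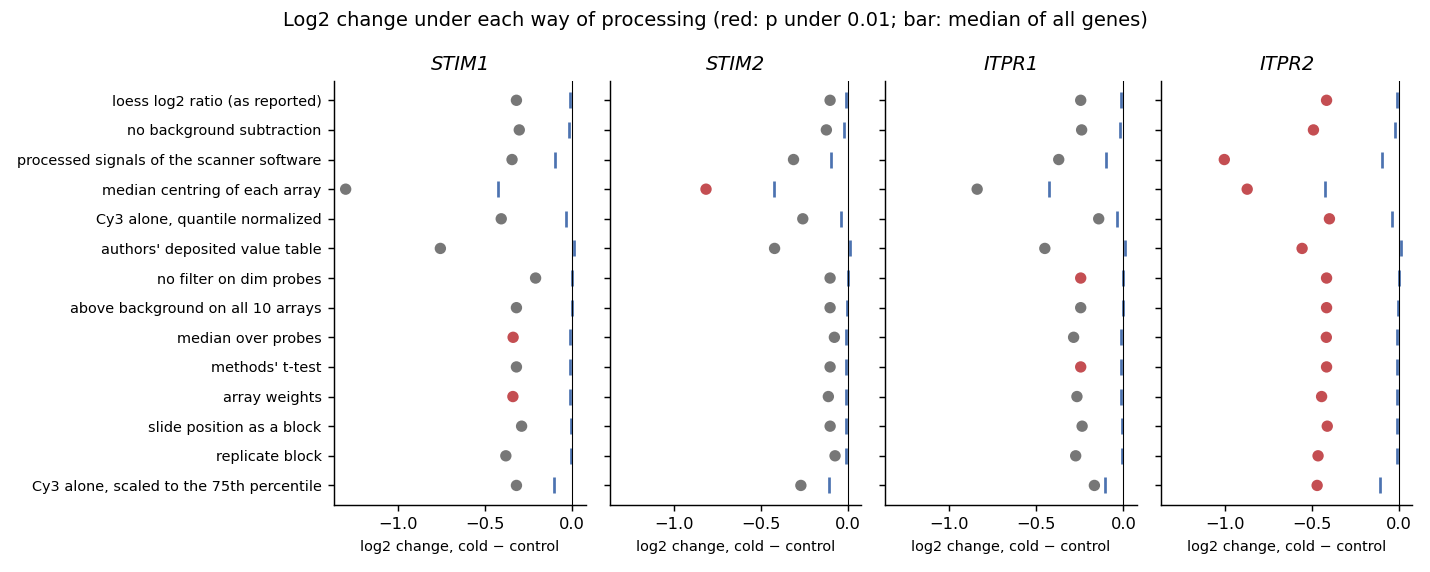
Log2 change, cold minus control, of STIM1, STIM2, ITPR1 and ITPR2 under each way of processing, with a point in red where the unadjusted p was under 0.01 and a blue bar at the median change of all genes under the same processing. ITPR2 is red in every line, and STIM2 only after median centring, which also moved the median of all genes to -0.42.

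Of 77 other genes of the pathway, 41 were measured, 7 had a target sequence that was not well above background and 29 had none matched. The change was below 0 for 16 of the 41 and above 0 for 25, with a median of 0.03. A single gene of the 41 had an unadjusted limma p under 0.01, against 8.62% of all genes, and none separated the groups without overlap, against 5.23% of all genes. It was higher in the cold group, which held for 5.2% of all genes at that p, and was PLCB2, the phospholipase C of haematopoietic cells that forms IP3 downstream of G protein-coupled receptors. PLCB2 was at 0.32 ± 0.16 (SD, n = 6) in the control group and 0.76 ± 0.30 (SD, n = 4) in the cold group. The change was 0.44 (SE 0.13), with a limma p of 0.00757 (adjusted 0.108) and an exact two-sided permutation p of 0.0143, and it was above 0 in all 23 alternatives, of which 8 kept an unadjusted p under 0.01. The call was lost and the change was smaller after median centring (0.23, or 0.66 relative to the median of all genes), with Cy3 alone (0.19), with processed signals (0.13) and with Cy3 scaled to its 75th percentile (0.12).

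By role, 4 of 7 measured regulators of STIM and ORAI were lower in the cold group and 3 higher, with changes of -0.15 to 0.13 and none at an unadjusted p under 0.05. SARAF, which inactivates store-operated entry, was among these 7. The 7 enzymes that remove IP3 or diacylglycerol were divided likewise, 3 lower and 4 higher, with changes of -0.19 to 0.32. The 3 measured of 12 listed genes of calcium export and storage had changes of 0.19 to 0.24, and 1 of the 3 had an unadjusted p under 0.05 (24.7% of all genes did), namely ATP2B4, a calcium pump of the plasma membrane, with a change of 0.22 (limma adjusted p = 0.171, exact permutation p = 0.0333). None of the measured genes of the mitochondrial calcium uniporter, which takes up calcium from the cytosol, had an unadjusted p under 0.05. The other 4 plasma membrane channels ranged from -0.31 to 0.22.

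Of 14 measured genes of calmodulin, calcineurin, NFAT and their regulators, 6 were lower and 8 higher in the cold group, and 3 had an unadjusted p under 0.05. These 3 and ATP2B4 are named after their values were seen. NFATC4 had a change of -0.85 (SE 0.32, limma adjusted p = 0.147, exact permutation p = 0.0619). NFATC3, an NFAT factor of lymphocytes, had a change of -0.18 (limma adjusted p = 0.199, exact permutation p = 0.0286). PPP3CA, a catalytic subunit of calcineurin, had a change of 0.31 (limma adjusted p = 0.163, exact permutation p = 0.0286). In all, 5 of the 41 pathway genes had an unadjusted p under 0.05, where 24.7% of all genes did.

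**Figure D5:**
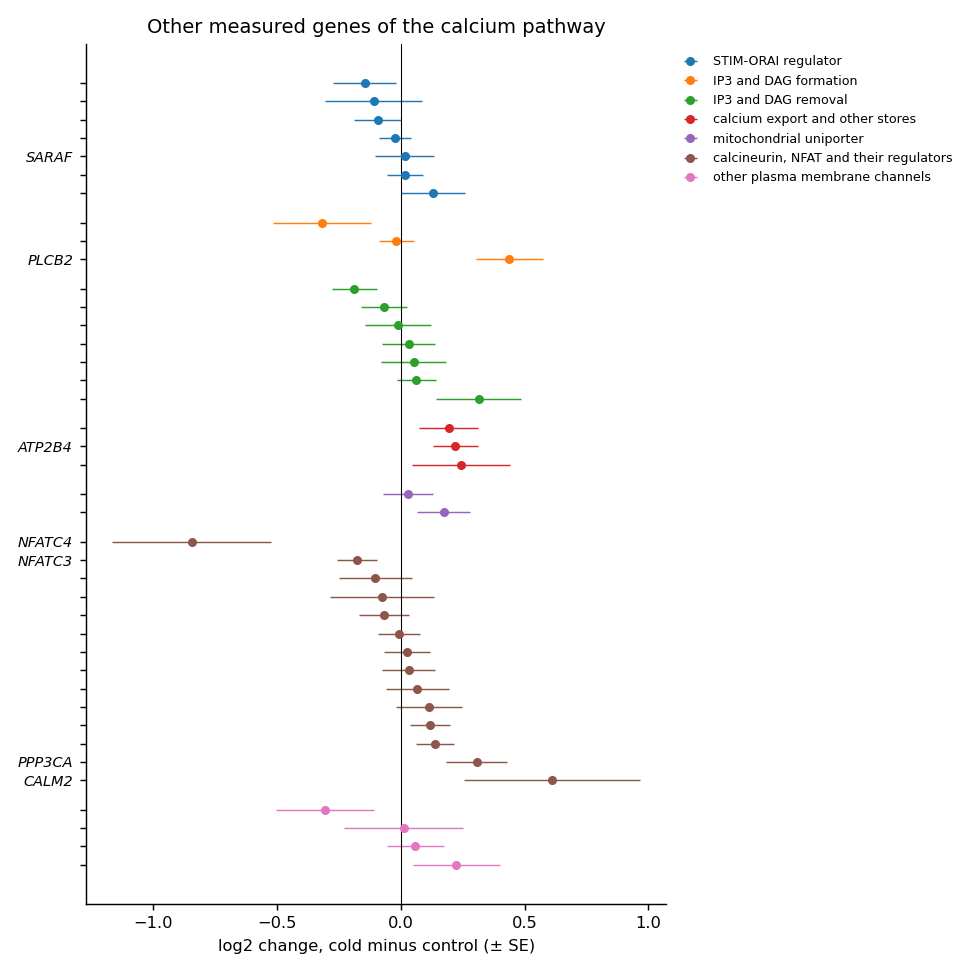
Log2 change, cold minus control, with its SE, of the other measured genes of the pathway, coloured by role, with the genes that the text names labelled (1 of the 41 is not shown). The changes run from -0.85 (NFATC4) to 0.61 (CALM2), and the changes within most roles lie on both sides of 0.

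The cells on the gradient were not of 1 type, and in RNA of mixed cells fewer cells of a type cannot be told apart from less RNA per cell. T cell markers were measured for 9 of 10 genes (not TCF7), 8 of the 9 with a lower mean in the cold group and none with an unadjusted p under 0.01. Their mean log2 ratio was -0.71 to 0.13 on the cold arrays and 0.17 to 0.44 on the control arrays, without overlap. Cold replicate 3 had the lowest STIM1, the lowest T cell marker level (-0.71) and the highest ITPR2 of the cold arrays. On cold replicates 1, 2 and 4 the T cell marker level was 0.10, 0.13 and 0.12, and STIM1 was -0.30, -0.26 and -0.56. Neutrophil markers were measured for 6 of 8 genes (not MMP8 or LTF), all 6 with a higher mean and 2 with an unadjusted p under 0.01 (5.2% of all genes were higher at that p), at 1.70 to 2.01 on cold arrays against 0.71 to 1.42 on control arrays. Erythroid markers (5 of 8 measured) did not share 1 direction, with 4 lower and 1 higher in mean and 1 in each direction at an unadjusted p under 0.01 (3.42% of all genes were lower and 5.2% higher at that p), while their mean log2 ratio was -0.59 to 0.24 on cold arrays and 0.27 to 0.99 on control arrays, without overlap. What part these cell types had in the lower STIM1, ITPR1 and ITPR2 was not tested.

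The other 4 marker lists overlapped between the groups. B cell markers (6 of 8 measured, not MS4A1 or PAX5) had mean log2 ratios of 0.55 to 0.94 in the cold group and -0.10 to 1.45 in the control group. Monocyte markers (5 of 8 measured) were at 0.15 to 0.72 and -0.25 to 0.42, with 1 of the 5 higher at an unadjusted p under 0.01, against 5.2% of all genes. NK and cytotoxic markers (3 of 7, not GZMB, KLRD1, NCR1 or EOMES) were at 0.04 to 1.12 and 0.18 to 1.19. Platelet markers (5 of 8, not PF4, PPBP or CLEC1B) were at 0.99 to 2.14 and -0.04 to 1.54, with 3 of the 5 higher at an unadjusted p under 0.01, against the same 5.2%.

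Among 8342 named genes, those whose log2 ratios followed STIM2 most closely over the 10 arrays were ZNF641 (Pearson r = 0.87), ZNF740 (0.85), GRID1 (0.84), TRIM56 (0.83) and SNX22 (0.83). With each group centred on its own mean, r was 0.85, 0.86, 0.82, 0.91 and 0.83 in the same order. The arrays share the reference pool and the normalization, and these r values, the highest of 8342, are a description with no test.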

How the data were processed

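PBMC RNA of 6 control and 4 cold ferrets was measured on 10 custom Agilent arrays of 416280 spots, with 181312 probes for 45328 target sequences. The authors deposited, per array, the intensity of each spot and its local background in both channels, intensities processed by Feature Extraction 10.7.3.1 and quality flags. A further deposited table gives 1 log2 value for each target sequence and array. Set against the scanner intensities, this table follows log2 Cy3 minus log2 Cy5 without background subtraction (correlation of deviations 0.999, slope 0.999). Its constants per array and per sequence are of unknown origin, and its array medians were 7.87 to 8.78. The deposited intensities are median values per spot, used in place of the planned mean.

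Background was corrected with normexp (offset 50, all spots), and within-array loess was run on log2(Cy3/Cy5) (span 0.3, 4 iterations) on spots that are no controls, in limma 3.58.1 under R 4.3.3. Outlier spots were left out, and spots were averaged per probe and probes per gene. The filter asked, on 4 or more arrays, that a fraction of 0.5 or more of a probe's spots be flagged as well above background in Cy3. It passed 111101 probes, and 26314 genes were tested, while 1 gene was dropped for a missing value. Of the target sequences, 21104 were named as 12918 genes through the RefSeq table of assembly ASM1176430v1.1, and the rest kept their accession. Each of the rest was counted as 1 gene. Groups were compared by lmFit and eBayes. Benjamini-Hochberg adjustment ran over every tested gene, with a threshold of 0.05, and calls are also given at the unadjusted 0.01 of the methods. Single values have an exact two-sided permutation test over 210 splits, whose smallest p is 0.00476. The precision is limited by the number of arrays, and nothing in the sources used here ties arrays to litters.

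The members, the pathway list and the 7 marker lists were chosen with earlier results of these data known. Genes named are members, pathway genes with an unadjusted p under 0.01 or groups that do not overlap, and the 5 genes most like STIM2. The exceptions are SARAF, CALM2 (named for the highest change), ATP2B4, NFATC3, NFATC4, PPP3CA and some marker genes that were not measured. The fit was tested on simulated data with planted changes larger than any change of the 7 members measured, so smaller changes were not covered. The alternatives were other background corrections, scalings, filters, summaries, channels and tests, the deposited table, array weights, blocks, and each array left out. The methods' t-test on single target sequences of the deposited table, and Cy3 scaled to its 75th percentile, were chosen after seeing the data. Each array lay on its own slide, so slide could not be a block. Sequences and genome positions of the probes were not used here. Some listed genes enter the counts and are not reported here by name.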

Additional observations from a re-analysis of the deposited data

How the results depend on the processing

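The results rest on 4 cold and 6 control arrays, and Cy5 was near background on part of the arrays at ORAI1, ITPR2 and some probes of STIM2 and ITPR1. Direction held in all 23 alternatives for STIM1, STIM2, ITPR1 and ITPR2. Genes with an adjusted p under 0.05 numbered 0 in the reported fit, 741 with Cy3 alone, 557 with Cy3 scaled to its 75th percentile, 115 when every array had to be above background, 5 with slide position as a block, and 0 to 1272 when 1 array was left out, the highest without cold replicate 2. Genes with an unadjusted p under 0.01 numbered 2269, and 1506 with processed signals, 1163 after median centring, 1092 in the deposited table and 1273 (without cold replicate 3) to 3385 (without cold replicate 2) with 1 array left out. The share of these that were lower in the cold group was 39.7%, and 57.4% with processed signals, 81.5% after median centring, 53.8% in the deposited table, 53.7% with Cy3 scaled to its 75th percentile, and 31.5% (without cold replicate 1) to 56.4% (without control replicate 5) with 1 array left out. The median change of all genes was -0.42 after median centring and -0.11 with Cy3 so scaled.

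Members called at an unadjusted p under 0.01 numbered 1 in the reported fit, where 8.62% of all genes were called. They numbered 2 with array weights, median centring, the median over probes, the methods' t-test and no filter on dim probes. With 1 array left out they numbered 1 to 3, the highest without cold replicate 2. The share of all genes called was 8.58% with the median over probes, 6.56% with the methods' t-test and 6.95% with no filter. Over these settings that share was lowest after median centring (4.42%) and highest without cold replicate 2 (12.86%). With array weights it lay between these. Pathway genes called numbered 1, and 2 with Cy3 alone, 5 with Cy3 scaled to its 75th percentile, 2 with array weights, 3 after median centring, 0 in the deposited table, with the methods' t-test, without background subtraction, with processed signals and with slide position as a block, and 0 to 3 with 1 array left out. STIM2 changed by -0.81 after median centring, which passed the unadjusted 0.01 (-0.39 relative to the median of all genes), and by -0.19 to -0.04 with 1 array left out. The shift of STIM2 minus STIM1 was 0.080 to 0.36 with 1 array left out. It was 0.034 with processed signals, 0.051 with Cy3 scaled to its 75th percentile and 0.49 after median centring. That of ITPR2 minus ITPR1 was -0.22 to -0.12 with 1 array left out, -0.63 with processed signals and -0.03 after median centring. ORAI3 minus ORAI1 was 0.0035 to 0.21 with 1 array left out, 0.39 with Cy3 alone, 0.66 with Cy3 scaled to its 75th percentile, -0.35 in the deposited table and -0.59 after median centring. ORAI3 was -0.40 in the deposited table and -0.98 after median centring. ATP2A2 was 0.24 with Cy3 alone, 0.22 with Cy3 scaled to its 75th percentile and 0.15 with processed signals. ORAI1 was -0.091 to 0.019 with 1 array left out, and -0.36 with processed signals, -0.35 with Cy3 scaled to its 75th percentile and -0.38 after median centring (0.04 relative to the median of all genes). The cause was not tested for any of these.

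The replicate numbers did not pair the arrays, since the deviations of control and cold arrays 1 to 4 correlated at -0.30, 0.54, 0.096 and -0.19 and 1 of the 4 cold arrays correlated best with its own number. With the replicate block, on 4 arrays a group, 2454 genes had an unadjusted p under 0.01 and 0 an adjusted p under 0.05, 1 member was called, and STIM2 changed by -0.07.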
